A study of Mus musculus with 9 samples.

Results

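The genes described here form the core of the cGAS-STING pathway. They were chosen by symbol from a list of 9 genes, and 8 of them had values among the 14020 genes of the normalized count table. These were Cgas, Ifi204, Sting1, Tbk1, Ikbke, Irf3, Enpp1 and Dnase2a, while Trex1 was not analysed here. RNA was sequenced from mouse hepatic stellate cells, liver pericytes that store vitamin A, after 4 days of culture under basal conditions. There were 9 libraries, 3 in each of these groups: wild type (WT), Sqstm1 knock-out (Sqstm1 KO) and Nbr1-Sqstm1 double-knock-out (double knock-out). Sqstm1 encodes the selective autophagy receptor p62 and Nbr1 a related receptor. The sources used here do not give how the alleles were made, which cells carried the deletions, or the strain, age and sex of the animals. The labels do not say whether replicates were separate animals or cultures, so the p-values measure the spread between these samples, which may be technical. The design text of the series speaks of an Nbr1 knock-out and of biological replicates, and so differs from the genotype labels of these libraries.

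The enzyme cGAS binds DNA in the cytosol and makes the messenger cGAMP, which activates STING, a membrane protein of the endoplasmic reticulum. STING then moves to the Golgi and recruits the kinase TBK1 or its relative IKK-epsilon, encoded by Ikbke, which phosphorylate the transcription factor IRF3 and so start the production of type I interferon. The pathway is held in check by nucleases that remove stray DNA, such as TREX1 and DNASE2, and by ENPP1, which breaks down cGAMP outside the cell. By its title the series asks how p62 and NBR1 act on this pathway in stellate cells.

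Read totals ran from 819677 to 1467793 per library. Sqstm1 stood between 223 and 255 normalized counts in WT, between 30.8 and 86.8 in Sqstm1 KO and between 25.8 and 59.9 in the double knock-out. It was lower than in WT in both knock-out groups (limma adjusted p = 0.0023 and 0.00116). Nbr1 was not called in any comparison, with 92.7 to 106 in WT and 79.9 to 111 in the double knock-out. Values summed over a gene can miss the loss of a few exons, so every direction drawn from the double knock-out rests on its label. The third Sqstm1 KO library stood apart, with reads in 12673 genes against 13349 to 13794 in the other 8. The 4 Y-linked genes with values had no read in Sqstm1 KO. They summed to 176 to 177 in WT and 76.5 to 112 in the double knock-out. Genotype and this difference in Y-linked RNA, which may reflect the sex of the animals, cannot be told apart in any of the comparisons. Of 17 stellate cell markers 10 had values, among them Vim, Pdgfrb and Col1a1, whereas Des, Lrat, Reln, Ngfr, Colec11, Rgs5 and Cygb were not analysed here, so the cell type label was checked only in part. Those 10 summed to 1782 to 1928 in WT, 5330 to 6143 in Sqstm1 KO and 4360 to 6647 in the double knock-out, and the part of this shift in the results was not tested. This sum does not hold for each stellate marker. In Sqstm1 KO against WT 7 of the 10 had a positive log2 fold change and 3 a negative one. The numbers were 9 and 1 in the double knock-out against WT, and 5 and 5 between the knock-out groups. Of 18 macrophage markers 4 had values (Cd68, Csf1r, Mpeg1 and Cd14), and Adgre1, Clec4f and Lyz2 were among those not analysed here. Their summed level was 20.3 to 35.4 in WT, 8.68 to 12.3 in Sqstm1 KO and 14.3 to 29.3 in the double knock-out. Only 1 of these 4 was high enough to be tested, so the sum need not hold for each marker. The 3 endothelial markers with values, of 12, summed to 91.6 to 120 in WT, 91.7 to 350.3 in Sqstm1 KO and 183 to 271 in the double knock-out, and the 2 cholangiocyte markers, of 6, to 16.3 to 26.4, 29.2 to 34.7 and 25.8 to 49.1. Hepatocyte and lymphocyte markers were not analysed here (0 of 8 with values in each list). In bulk RNA, fewer cells of a type and less RNA per cell cannot be told apart.

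Each value is the number of reads assigned to a gene divided by a factor for the size of its library. All 9 libraries entered limma's linear model on log2(value + 1), with the 10118 genes that reached 10 in 3 or more libraries. A gene is said to be called when its Benjamini-Hochberg adjusted p, taken over all genes tested, was under 0.05. Fold changes are on the scale of the value plus 1, which understates the change of low genes. Of the 8 core genes 5 passed this filter: Cgas, Ifi204, Sting1, Tbk1 and Irf3. A gene that passed only through the group where it was high had to differ. Counts over the 5, and over the gene lists given below, therefore describe those genes and support nothing more. Ikbke, Enpp1 and Dnase2a were below the filter and are given by their values. Levels are not compared between genes.

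The promoter sequences printed here are those of Irf3, a called core gene whose start lies close to that of a neighbour on the other strand, and of 3 relatives of Ifi204 that were called together. They were taken from RefSeq on build GRCm38.p6, run 5′ to 3′ on the strand of the gene, and cover 250 bases before the start of the gene and 50 after it. The submitters' build was GRCm39, so these positions are those of RefSeq and not of the deposited table. In the Irf3 promoter (chr7:44997398-44997697, plus strand) capitals mark the 69 bases between the RefSeq starts of Bcl2l12 on the minus strand and of Irf3. In the promoters of Ifi203 (chr1:173942443-173942742), Ifi211 (chr1:173912997-173913296) and Mndal (chr1:173880138-173880437), all on the minus strand, capitals mark a match to GAAA, then any 2 bases, then GAAA, the core of the element that interferon-activated transcription factors bind.
Irf3: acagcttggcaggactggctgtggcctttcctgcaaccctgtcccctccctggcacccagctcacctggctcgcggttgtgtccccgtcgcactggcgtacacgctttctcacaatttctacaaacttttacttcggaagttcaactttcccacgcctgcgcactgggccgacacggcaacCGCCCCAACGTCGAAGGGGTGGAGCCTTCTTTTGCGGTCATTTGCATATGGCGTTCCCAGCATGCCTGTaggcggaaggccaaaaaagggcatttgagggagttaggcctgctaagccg
Ifi203: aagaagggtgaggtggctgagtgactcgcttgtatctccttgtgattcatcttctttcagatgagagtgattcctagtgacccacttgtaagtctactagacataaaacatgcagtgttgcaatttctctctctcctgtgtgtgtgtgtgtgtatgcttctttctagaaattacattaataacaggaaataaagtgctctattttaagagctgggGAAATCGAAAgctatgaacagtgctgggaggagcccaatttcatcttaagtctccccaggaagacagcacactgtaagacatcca
Ifi211: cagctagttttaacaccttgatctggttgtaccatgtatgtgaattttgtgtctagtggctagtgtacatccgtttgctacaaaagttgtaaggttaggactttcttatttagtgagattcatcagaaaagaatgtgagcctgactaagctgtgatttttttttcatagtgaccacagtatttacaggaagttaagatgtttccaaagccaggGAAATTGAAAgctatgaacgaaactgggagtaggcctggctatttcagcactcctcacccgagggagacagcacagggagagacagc
Mndal: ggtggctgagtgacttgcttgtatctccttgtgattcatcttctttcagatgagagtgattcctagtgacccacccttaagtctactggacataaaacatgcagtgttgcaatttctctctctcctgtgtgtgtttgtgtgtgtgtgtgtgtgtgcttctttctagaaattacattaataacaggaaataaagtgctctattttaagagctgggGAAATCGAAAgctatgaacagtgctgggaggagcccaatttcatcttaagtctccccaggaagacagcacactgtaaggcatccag
The match lay 35 bases before the start in Ifi203, 37 in Ifi211 and 36 in Mndal. Its letters were GAAATCGAAA in Ifi203 and Mndal and GAAATTGAAA in Ifi211. Over both strands, 3.44% of the 32851 promoters of the same length held this motif. RefSeq gives Ifi203 and Mndal 2 starts each. The windows shown were picked for Ifi203 as the one with the match, since the window of its other start held none, and for Mndal as the first listed. The window of the other Mndal start held a different match, TTTCTCTTTC on the opposite strand, 54 bases before that start. The promoters of Ifi204 and Sting1 were not searched, so whether they hold the motif is not known here. Of the 8 core genes 6 had a promoter that was searched (Cgas, Tbk1, Ikbke, Irf3, Enpp1 and Dnase2a), and 0 of them held the motif in this window. A second motif, not reported here, was searched in the same windows and had no match in any of them. The motifs were chosen after the values of the 3 relatives were seen. A match is a description of the sequence and does not show that a factor binds there. The Ifi203 and Mndal promoters shared an unbroken run of 139 bases, so the pair is not independent. The longest run either shared with Ifi211 was 13 bases.

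**Figure D1:**
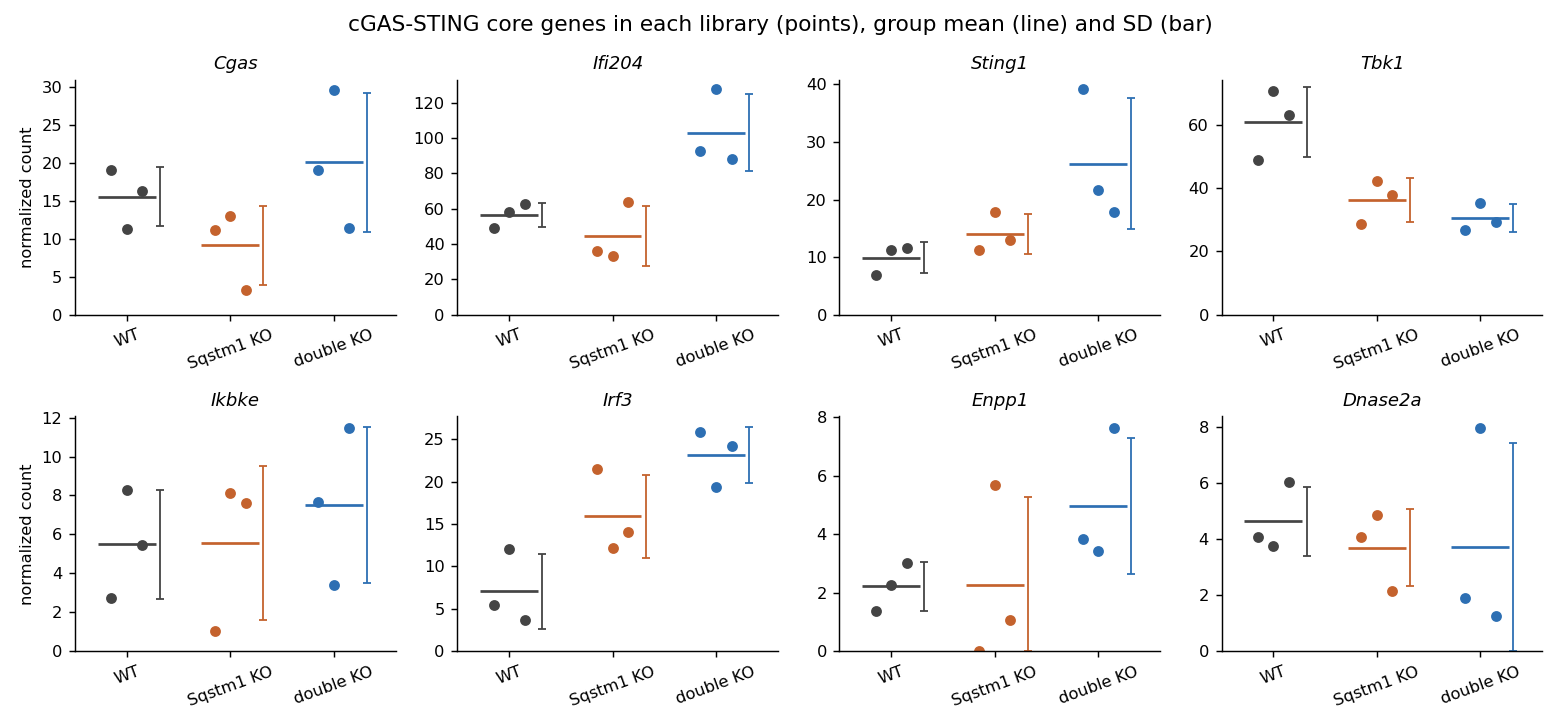
Normalized counts (vertical axis, linear, starting at 0) of the 8 core genes in the 3 groups, with 1 point per library, a line at the group mean and a bar of 1 SD beside it (n = 3; a bar that would pass below 0 stops at 0). Tbk1 sits lower in both knock-out groups than in WT, and Irf3 and Ifi204 have their highest means in the double knock-out.

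The sensors were examined first. Cgas, which encodes the DNA sensor itself, stood at 19.1, 11.3 and 16.4 normalized counts in the WT libraries, at 11.2, 13.0 and 3.25 in Sqstm1 KO, and at 19.1, 29.7 and 11.5 in the double knock-out. The ranges of the 3 groups overlapped, and the lowest value came from the third Sqstm1 KO library, where it rested on 3 reads. The group means were 15.6 ± 3.94, 9.16 ± 5.19 and 20.1 ± 9.15 (SD, n = 3 each). Cgas was not called in any comparison. The difference nearest to a call was that of the double knock-out minus Sqstm1 KO, with a log2 fold change of 1.13 (95% interval 0.05 to 2.22; limma adjusted p = 0.245). The interval for Sqstm1 KO minus WT ran from -1.94 to 0.23, so a fall of that size and a small rise were both inside it. Its exons share 201 bases with the pseudogene Gm8093 on the other strand.

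Ifi204 belongs to the AIM2-like receptors, a cluster of interferon-inducible DNA-binding proteins, and its product p204 is regarded as the mouse relative of human IFI16, a cofactor of DNA sensing upstream of STING. It stood at 49.0, 58.0 and 62.5 in WT, at 35.7, 33.3 and 64.0 in Sqstm1 KO and at 92.8, 128 and 87.9 in the double knock-out. All 3 double knock-out libraries lay above all 6 others, while WT and Sqstm1 KO overlapped through the value of the third Sqstm1 KO library. Ifi204 rose in the double knock-out against Sqstm1 KO, from 44.3 ± 17.1 to 103 ± 21.8 (SD, n = 3), a log2 fold change of 1.24 (SE 0.30, limma adjusted p = 0.0243). Leaving out Sqstm1 KO replicate 1 or 2 ended that call (adjusted p = 0.0837 and 0.0874), as did leaving out double knock-out replicate 1, 2 or 3 (0.066, 0.0954 and 0.0708), and it held without Sqstm1 KO replicate 3, with 0.00134 as the lowest adjusted p among its alternatives. It was also lost when only the 2 groups compared were fitted (adjusted p = 0.0777). Against WT the log2 fold change was 0.84 (95% interval 0.20 to 1.48; adjusted p = 0.119). Ifi204 passed the threshold there with only the 2 groups fitted (adjusted p = 0.0333) and without the third Sqstm1 KO library, which enters through the shared estimate of spread (0.0261).

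Of the AIM2-like relatives of Ifi204 listed among the DNA sensors, 3 had values and were called in the double knock-out against Sqstm1 KO, as Ifi204 was. Ifi203, a member of the same cluster on chromosome 1, stood at 20.4, 19.6 and 24.9 in WT, at 4.08, 7.30 and 0 in Sqstm1 KO and at 35.4, 42.2 and 24.2 in the double knock-out. The Sqstm1 KO libraries lay below both other groups, without overlap. It fell in Sqstm1 KO against WT (limma log2 fold change -2.69, SE 0.62, adjusted p = 0.0198), a call lost without WT replicates 1, 2 or 3 (0.0825, 0.0743 and 0.0909) and with only those 2 groups fitted (0.0659). It rose in the double knock-out against Sqstm1 KO (log2 fold change 3.29, SE 0.62, adjusted p = 0.00503), and that call held without each library in turn (adjusted p up to 0.0323). The size of both changes depended on the Sqstm1 KO libraries: without replicate 3, which had 0 reads, the log2 fold changes were -1.79 and 2.39, and without replicate 2 they were -3.32 and 3.92.

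Ifi211, another member of the cluster, stood at 19.1, 28.6 and 43.1 in WT, at 15.3, 17.0 and 11.9 in Sqstm1 KO and at 39.2, 66.2 and 57.3 in the double knock-out. It rose in the double knock-out against Sqstm1 KO (limma log2 fold change 1.79, SE 0.35, adjusted p = 0.00692), also without each library in turn (adjusted p up to 0.0476). In Sqstm1 KO against WT its groups did not overlap, but it was not called (log2 fold change -0.93, adjusted p = 0.16). Mndal stood at 9.53, 7.53 and 16.4 in WT, at 3.06, 6.49 and 6.51 in Sqstm1 KO and at 14.3, 27.4 and 19.1 in the double knock-out. It rose in the same comparison (log2 fold change 1.75, SE 0.46, adjusted p = 0.038), a call that was lost without any 1 library other than Sqstm1 KO replicate 3 (0.0567 to 0.144). It was also lost with quantile normalization (0.0571) and with only the 2 groups fitted (0.0888). In the third Sqstm1 KO library Ifi204 had its highest value of that group and Ifi203 its lowest, with 0 reads. The genes of this cluster are close copies, and their gene models are not all apart. In the mouse annotation GENCODE M21 Mndal (chr1:173849126-173942491) spans Ifi211 and most of Ifi203 on the same strand. It shares 37 exon bases with Ifi203 and 0 with Ifi211. The counts of the 3 relatives may thus not be separate. Reads that fit several of these genes may have been split or dropped in a way that the sources used here do not give. None of the 3 relatives was called between the double knock-out and WT, where their log2 fold changes were 0.60, 0.86 and 0.83 (adjusted p = 0.626, 0.173 and 0.321), nor was Ifi204. Whether the relatives moved more than Ifi204 was not tested.

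**Figure D2:**
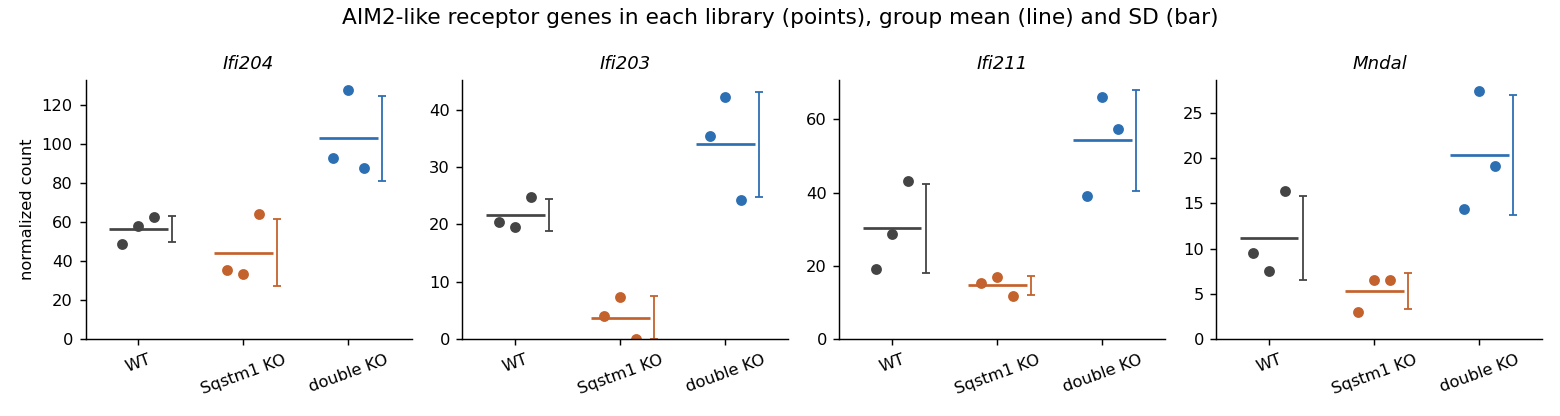
Normalized counts (vertical axis, linear, starting at 0) of Ifi204 and its relatives Ifi203, Ifi211 and Mndal in the 3 groups, with 1 point per library, a line at the group mean and a bar of 1 SD (n = 3). The double knock-out libraries lie above all Sqstm1 KO libraries in each panel.

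Sting1 encodes the adaptor STING. It stood at 6.81, 11.3 and 11.5 in WT, at 11.2, 17.9 and 13.0 in Sqstm1 KO and at 39.2, 21.7 and 17.8 in the double knock-out. The double knock-out libraries lay above all WT libraries, and the lowest of them was just below the highest Sqstm1 KO library. The means were 9.88 ± 2.66, 14.0 ± 3.43 and 26.2 ± 11.4 (SD, n = 3), on 39, 45 and 74 reads in all. Sting1 was not called in any comparison. In the double knock-out minus WT its log2 fold change was 1.28 (95% interval 0.41 to 2.15; limma adjusted p = 0.0798), and without the third Sqstm1 KO library its adjusted p was 0.0393. Across the alternatives the adjusted p ran from 0.0393 to 0.282. The other log2 fold changes were 0.48 for Sqstm1 KO minus WT (-0.39 to 1.34) and 0.80 for the double knock-out minus Sqstm1 KO (-0.07 to 1.67). The annotation used shows no overlap of its exons with a gene on the opposite strand.

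Tbk1, the kinase that phosphorylates STING and IRF3 and also autophagy receptors such as p62, had the opposite order of means. It stood at 49.0, 70.8 and 63.1 in WT, at 28.6, 42.2 and 38.0 in Sqstm1 KO and at 26.8, 35.4 and 29.3 in the double knock-out. All 6 libraries of the knock-out groups lay below all WT libraries, and the knock-out groups overlapped each other. The means were 61.0 ± 11.0, 36.3 ± 6.97 and 30.5 ± 4.43 (SD, n = 3). By the main test Tbk1 was not called, with log2 fold changes of -0.74 in Sqstm1 KO (95% interval -1.35 to -0.12; limma adjusted p = 0.167) and -0.97 in the double knock-out (-1.58 to -0.36; adjusted p = 0.0607) against WT. The second of these passed the threshold by edgeR on the recovered reads (adjusted p = 0.0466), by DESeq2 (0.0432), with quantile normalization (0.0408), with only the 2 groups fitted (0.028), with the replicate number as a block (0.046) and without the third Sqstm1 KO library (0.0239). Over all alternatives its adjusted p ran from 0.0239 to 0.273. Both comparisons share the WT libraries.

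Ikbke encodes IKK-epsilon, the inducible relative of TBK1, and had few reads. It stood at 2.72, 8.29 and 5.46 in WT, at 1.02, 8.12 and 7.59 in Sqstm1 KO and at 7.65, 3.42 and 11.5 in the double knock-out, on 22, 18 and 20 reads in all. The 3 groups overlapped throughout. The largest of the 3 differences in mean log2 was 0.53, in the double knock-out minus Sqstm1 KO (exact permutation test, two-sided, p = 0.6, where 3 libraries against 3 cannot go below 0.1). The exact permutation p was 0.8 for Sqstm1 KO and 0.6 for the double knock-out against WT. Without the filter on low values the interval of that difference ran from -0.87 to 1.93, so a difference of that size was not detectable at this depth.

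Irf3 encodes the transcription factor that TBK1 activates. It stood at 5.45, 12.1 and 3.64 in WT, at 21.4, 12.2 and 14.1 in Sqstm1 KO and at 25.8, 19.4 and 24.2 in the double knock-out. Every library of the knock-out groups lay above every WT library, although the lowest Sqstm1 KO library, at 12.2, and the highest WT library, at 12.1, were almost level. Irf3 rose in the double knock-out against WT, from 7.05 ± 4.43 to 23.1 ± 3.33 (SD, n = 3), on 26 and 63 reads, which is a log2 fold change of 1.71 (SE 0.44, limma adjusted p = 0.0312). Leaving out WT replicate 1 or 3 ended that call (adjusted p = 0.099 and 0.156), as did leaving out double knock-out replicate 1, 2 or 3 (0.112, 0.0559 and 0.127). Across the alternatives the adjusted p ran from 0.0137 to 0.156. In Sqstm1 KO the mean was 15.9 ± 4.89, with a log2 fold change of 1.17 against WT (95% interval 0.23 to 2.11; adjusted p = 0.151). Between the knock-out groups the log2 fold change was 0.54 (-0.40 to 1.49; adjusted p = 0.539).

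Enpp1, the hydrolase that degrades cGAMP, had few reads in all groups. It stood at 1.36, 2.26 and 3.03 in WT, at 0, 5.68 and 1.08 in Sqstm1 KO and at 3.82, 3.42 and 7.64 in the double knock-out. The reads numbered 9, 8 and 13 per group, with exact 95% Poisson intervals of 4.12 to 17.1, 3.45 to 15.8 and 6.92 to 22.2, which cover counting error only. The double knock-out libraries lay above the WT libraries, with an exact permutation p of 0.1 (two-sided), the smallest the design allows. For Sqstm1 KO against WT and the double knock-out against Sqstm1 KO the groups overlapped (exact permutation p = 0.7 and 0.3). Without the filter the log2 fold change was 0.86 with an interval of -0.65 to 2.37.

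Dnase2a encodes the lysosomal nuclease that digests DNA taken up from dead cells and from autophagosomes. It stood at 4.09, 3.77 and 6.06 in WT, at 4.08, 4.87 and 2.17 in Sqstm1 KO and at 1.91, 7.99 and 1.27 in the double knock-out, on 18, 12 and 10 reads. The groups overlapped in every comparison, and the exact permutation p was 0.5, 0.5 and 0.8 (two-sided) for Sqstm1 KO against WT, the double knock-out against WT and the double knock-out against Sqstm1 KO.

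Among the 5 tested core genes, 0 were called in Sqstm1 KO against WT by limma, edgeR or DESeq2, beside 5.61% of all genes tested (2.43% higher and 3.18% lower). Tbk1, lower, and Irf3, higher, were the 2 with an unadjusted p under 0.05. Their groups were apart as well, 1 higher and 1 lower, as were those of 26.0% of all genes (12.4% higher and 13.6% lower). In the double knock-out against WT limma called 1 core gene, Irf3, beside 6.42% of all genes (4.11% higher and 2.31% lower). Both edgeR and DESeq2 called 2 there, and the unadjusted p was under 0.05 for 4. The groups of Ifi204, Sting1 and Irf3 were apart and higher and those of Tbk1 apart and lower, which is 4 of 5 beside 31.2% of all genes (15.7% higher and 15.5% lower). Without the third Sqstm1 KO library 4 were called (Sting1, Tbk1, Irf3 and Ifi204), and the genes called over the whole table went from 650 to 1409. In the double knock-out against Sqstm1 KO each of the 3 tools called 1 core gene, Ifi204 by limma, beside 5.93% of all genes (4.42% higher and 1.51% lower). The groups of Ifi204 alone were apart there, beside 21.0% of all genes (11.5% higher and 9.47% lower). The median log2 fold change of the 5 was -0.40, 0.84 and 0.80 in the 3 comparisons, and that of all genes tested was -0.01, -0.02 and -0.0083. The comparisons share their control libraries and are not independent of each other.

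**Figure D3:**
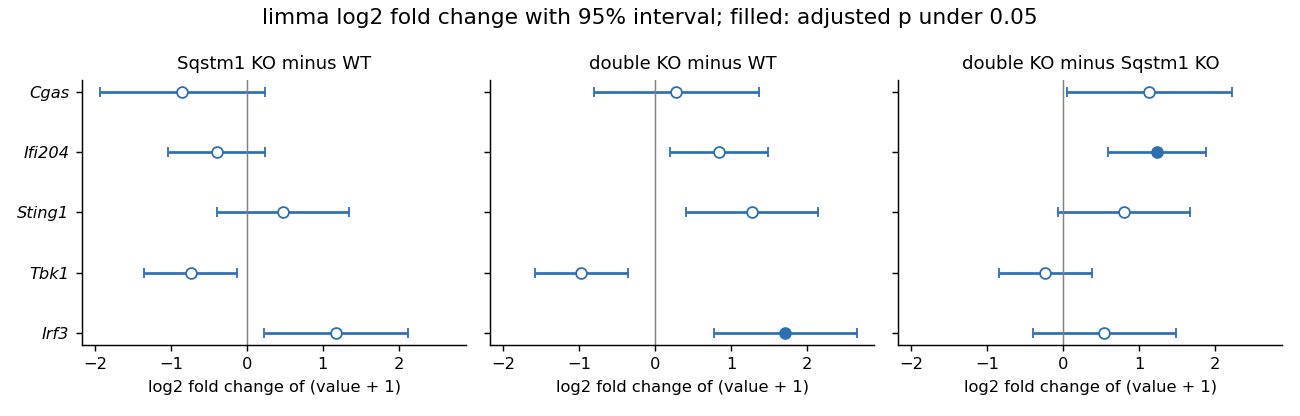
limma log2 fold changes of the value plus 1 (horizontal axis) for the 5 core genes that were tested, in the 3 comparisons, with 95% intervals. Filled points are calls at an adjusted p under 0.05, which were Irf3 in the double knock-out minus WT and Ifi204 in the double knock-out minus Sqstm1 KO.

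The order of the group means differed between the genes. Irf3 and Sting1 were lowest in WT, intermediate in Sqstm1 KO and highest in the double knock-out, and in both the neighbours in that order were not called apart. Cgas and Ifi204 were lowest in Sqstm1 KO and highest in the double knock-out, with WT between them, and Ifi204 was called only between the ends of that order. Tbk1 was highest in WT and lowest in the double knock-out.

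The genes whose profile over the 9 libraries was most like that of each core gene were picked by the Pearson correlation of log2 values, given as a description. They were Adcy6 (0.955), Jmy (0.94) and Exoc1 (0.929) for Cgas, and Slc27a4 (0.966), Art3 (0.938) and Tpi1 (0.927) for Ifi204. For Sting1 they were Macroh2a1 (0.944), Grik5 (0.941) and Mycbp2 (0.94). Tbk1 was most like Atf7 (0.961), Syap1 (0.944) and Aftph (0.943), and Irf3 most like Flot1 (0.946), Prr33 (0.935) and Kif21b (0.929). No core gene was among those most like another. With 9 libraries and 10118 genes high values are to be found for nearly any profile, and the libraries share their groups and depth.

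Reads of a gene and of a partner on the opposite strand cannot be told apart here, since the sources used here do not give the strandedness of the libraries or of the counting. Exon overlaps of this kind were present for Cgas, Ikbke, Irf3 and Dnase2a in the mouse annotation GENCODE M21. Dnase2a shares 1616 of its 5389 exon bases with Mast1, a kinase gene best known from neurons. Mast1 stood at 200, 133 and 98.8 in WT, at 126, 99.8 and 98.7 in Sqstm1 KO and at 201, 97.0 and 139 in the double knock-out, and was not called in any comparison. Whether reads were assigned to the correct strand was not tested, and this bears on the values of all core genes.

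Gm28913, a non-coding gene antisense to Ikbke, differed between all 3 groups. It stood at 77.6, 66.3 and 62.5 in WT, at 26.5, 27.6 and 41.2 in Sqstm1 KO and at 180, 147 and 186 in the double knock-out. No 2 groups overlapped. It fell in Sqstm1 KO from 68.8 ± 7.89 in WT to 31.8 ± 8.19 (SD, n = 3), a log2 fold change of -1.11 (SE 0.26, limma adjusted p = 0.023). It rose in the double knock-out against WT to 171 ± 20.8 (SD, n = 3), with a log2 fold change of 1.30 (SE 0.26, adjusted p = 0.00815), and against Sqstm1 KO (log2 fold change 2.41, SE 0.26, adjusted p = 6.14e-05). The last of these held without each library in turn (adjusted p up to 0.00133). The fall was no longer called when any WT library (adjusted p = 0.109, 0.106 and 0.0692) or Sqstm1 KO replicate 1 or 2 (0.0805 and 0.0611) was left out, nor with only the 2 groups fitted (0.0559). The rise against WT was no longer called without WT replicate 2 or 3 (0.0562 and 0.0524) or double knock-out replicate 3 (0.0599). Of its 364 exon bases in that annotation 65 overlap an exon of Ikbke and the rest lie within Ikbke on the other strand. Whether its reads came from Ikbke RNA was not tested.

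Bcl2l12, an apoptosis-related gene, runs the other way from Irf3, and the 2 gene models used differ on where it starts. RefSeq puts its start 69 bases before that of Irf3, as in the promoter printed above, which leaves no overlap. GENCODE M21 has it begin inside Irf3, with 88 exon bases shared. In that annotation 572 of its 1976 exon bases also overlap Gm15545, an antisense gene with a mean of 121 over the 9 libraries. Bcl2l12 stood at 12.3, 18.8 and 14.6 in WT, at 10.2, 9.74 and 36.9 in Sqstm1 KO and at 17.2, 18.3 and 12.7 in the double knock-out. Its log2 fold changes were 0.05, 0.08 and 0.03 in the 3 comparisons (limma adjusted p = 0.967, 0.944 and 0.985), and its groups overlapped in each. The highest value, in the third Sqstm1 KO library, was not matched by Irf3.

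**Figure D4:**
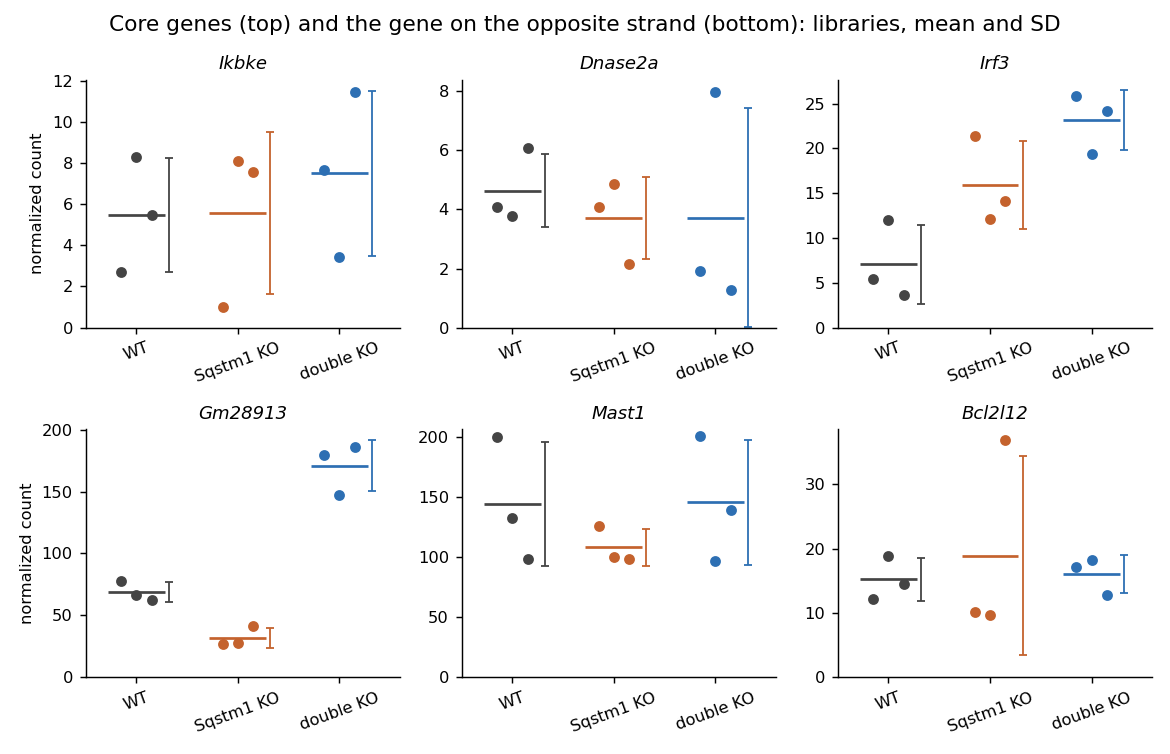
Normalized counts (vertical axis, linear, starting at 0, with a scale for each panel) of Ikbke, Dnase2a and Irf3 in the upper row, and of Gm28913, Mast1 and Bcl2l12 on the opposite strand below them, with 1 point per library, the group mean and a bar of 1 SD (n = 3; bars stop at 0). Gm28913 differs between all 3 groups while the values of Ikbke overlap.

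The other genes of the pathway were taken from lists by role, chosen with earlier results of these data known. Among DNA sensors and AIM2-like receptors 14 of 24 listed genes were tested. Besides the relatives of Ifi204 described above, the list held 1 other called gene, Lrrfip1, which encodes a nucleic acid-binding protein. Lrrfip1 stood at 113, 139 and 152 in WT, at 154, 139 and 139 in Sqstm1 KO and at 42.1, 84.5 and 70.0 in the double knock-out, where all 3 libraries lay below the 6 others. It fell in the double knock-out against WT (log2 fold change -1.08, limma adjusted p = 0.0335) and against Sqstm1 KO (-1.18, adjusted p = 0.0221). The first call ended when any WT library or double knock-out replicate 1 or 3 was left out (0.058 to 0.158). The second ended without double knock-out replicate 1 or 3 or Sqstm1 KO replicate 1 (0.0702 to 0.111) and with only the 2 groups fitted (0.0715). In all, 0 genes of the list rose and 1 fell in Sqstm1 KO against WT, 0 rose and 1 fell in the double knock-out against WT, and 3 rose and 1 fell in the double knock-out against Sqstm1 KO. A single call in 14 is close to the 5.61% and 6.42% of all genes called in the first and second of these comparisons, and the 4 calls in the last, which were 2 to 4 without single libraries, stand beside 5.93%. The medians of the list were -0.11, -0.10 and 0.08.

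The list of DNA clearance genes held nucleases and related proteins. Its name does not give the direction in which each gene acts on cGAS. Of its 16 genes 9 were tested. In the double knock-out against WT 1 was called, beside 6.42% of all genes tested. Mus81, a subunit of a structure-specific endonuclease, stood at 128, 97.9 and 73.4 in WT, at 59.2, 51.1 and 38.0 in Sqstm1 KO and at 43.0, 34.2 and 42.0 in the double knock-out. Both knock-out groups lay below WT without overlap. It fell in the double knock-out against WT (limma log2 fold change -1.28, SE 0.29, adjusted p = 0.0162), a call that ended when WT replicate 1 or 2 (0.0835 and 0.0824) or double knock-out replicate 2 or 3 (0.0549 and 0.0649) was left out. Its exons share 173 bases with Efemp2 on the other strand. In Sqstm1 KO against WT limma called 0 genes of the list, edgeR 0 and DESeq2 1 (Mus81, adjusted p = 0.036, which also passed with quantile normalization, 0.0481, and the replicate block, 0.0454), with 2 at an unadjusted p under 0.05, and in the double knock-out against Sqstm1 KO all 3 tools called 0, with 0 at that p. The medians were 0.17 in Sqstm1 KO against WT, 0.41 in the double knock-out against WT and 0.25 between the knock-out groups.

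For transport and breakdown of cGAMP, 4 of 11 genes were tested. In the double knock-out against WT 1 was called, beside 6.42% of all genes tested. Lrrc8c, a subunit of the volume-regulated anion channels that can carry cGAMP across the cell membrane, stood at 34.0, 44.4 and 50.3 in WT, at 32.7, 33.3 and 6.51 in Sqstm1 KO and at 4.78, 18.3 and 2.55 in the double knock-out. The double knock-out libraries lay below all WT libraries. It fell in that comparison (limma log2 fold change -2.56, SE 0.64, adjusted p = 0.0266), a call that ended when any WT library (0.0705, 0.103 and 0.122) or double knock-out replicate 1 or 3 (0.104 and 0.144) was left out. All 3 tools called 0 genes of the list in the other 2 comparisons, with 0 at an unadjusted p under 0.05 in Sqstm1 KO against WT and 2 in the double knock-out against Sqstm1 KO. Without the third Sqstm1 KO library Lrrc8c was called in the last of these (adjusted p = 0.0149). The medians were 0.32, -0.21 and -0.78 in the 3 comparisons.

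In the list of STING trafficking factors and ubiquitin ligases 22 of 31 were tested, and 1 was called in each comparison with Sqstm1 KO. This stands beside 5.61% of all genes called in Sqstm1 KO against WT and 5.93% in the double knock-out against Sqstm1 KO. The called gene was Trim30a, an interferon-inducible TRIM protein that has been described as a brake on STING. Trim30a stood at 57.2, 51.2 and 58.8 in WT, at 8.17, 9.74 and 9.76 in Sqstm1 KO and at 40.2, 61.6 and 36.9 in the double knock-out. It fell in Sqstm1 KO (limma log2 fold change -2.47, SE 0.30, adjusted p = 0.000215) and rose in the double knock-out against Sqstm1 KO (2.18, SE 0.30, adjusted p = 0.000496). Both calls held without each library in turn (adjusted p up to 0.00274 and 0.00386). The other 21 tested genes of the list, among them Surf4, Sec24c, Npc1, Tollip and Stim1, were not called in any comparison. All 3 tools called 0 genes of the list in the double knock-out against WT, with 3 at an unadjusted p under 0.05. Without the third Sqstm1 KO library 2 genes of the list were called in each comparison. Those it added included, named after their values were seen, Nlrc3, lower in Sqstm1 KO than in WT (limma adjusted p = 0.0306), Copa, higher in the double knock-out against WT (0.0365), and Usp18, higher in the double knock-out than in Sqstm1 KO (0.0272). Usp18 also passed without double knock-out replicate 1 (0.0472), and Rnf115 without double knock-out replicate 2, lower than in WT (0.0275) and than in Sqstm1 KO (0.0149). The medians were -0.23, 0.03 and 0.22.

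Among adaptors and regulators of TBK1 and IRF3 13 of 19 were tested, and limma called 1, Irf7, in each comparison with Sqstm1 KO. This stands beside 5.61% of all genes called in Sqstm1 KO against WT and 5.93% in the double knock-out against Sqstm1 KO. Irf7, the inducible relative of IRF3, stood at 9.53, 16.6 and 6.06 in WT, at 1.02, 2.43 and 0 in Sqstm1 KO and at 12.4, 16.0 and 12.7 in the double knock-out. The Sqstm1 KO libraries, with 1, 3 and 0 reads, lay below both other groups. It fell in Sqstm1 KO against WT (limma log2 fold change -2.52, SE 0.58, adjusted p = 0.0208), a call lost without WT replicates 1 or 2 (0.0934 and 0.176) or double knock-out replicate 3 (0.0523) and with only the 2 groups fitted (0.0515). It rose in the double knock-out against Sqstm1 KO (2.94, SE 0.58, adjusted p = 0.00708), a call lost without double knock-out replicates 2 or 3 (0.0514 and 0.0565). Its exons share 45 bases with Phrf1 on the other strand. The scaffold genes Tank, Azi2 and Optn and the NF-kB kinases Chuk, Ikbkb and Ikbkg were not called in any comparison. All 3 tools called 0 genes of the list in the double knock-out against WT, with 2 at an unadjusted p under 0.05. In that comparison 2 genes, named after their values were seen, passed under other settings: Irf5, higher, a further relative of IRF3, and Traf3, lower, a ubiquitin ligase that acts with TBK1. Both passed with quantile normalization (adjusted p = 0.0154 and 0.0429), with only the 2 groups fitted (0.00837 and 0.0442) and without the third Sqstm1 KO library (0.00625 and 0.0349), and Traf3 also with the replicate block (0.0399) and without double knock-out replicate 2 (0.0183). In Sqstm1 KO against WT edgeR and DESeq2 called 2 genes of the list, and the second was Irf5, higher (adjusted p = 0.0363 and 0.00555). Irf5 was called there too with quantile normalization (0.0139) and without Sqstm1 KO replicate 2 (0.0251), against 0.108 by the main limma test. The medians were -0.17, -0.07 and 0.06.

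The interferon output list held 18 genes that STING signalling is known to induce, of which 13 were tested. In Sqstm1 KO against WT 8 fell and 0 rose (median log2 fold change -1.81), beside 3.18% of all genes called lower. In the double knock-out against Sqstm1 KO 10 rose and 0 fell (median 2.65), beside 4.42% of all genes called higher. Oasl2 and Rsad2 of this list did not reach 10 in any Sqstm1 KO library and passed the filter through the other groups. These counts describe the list and support nothing more. In the double knock-out against WT 0 were called by limma, 1 by edgeR and 1 by DESeq2, 3 had an unadjusted p under 0.05, and the median was 0.45. The gene called by both was Ifit1, higher (adjusted p = 0.0203 and 0.0491), which limma called without the third Sqstm1 KO library (0.0134), without double knock-out replicate 2 (0.0346), with the replicate block (0.0231) and, with Ifi44 (0.0386), when only the 2 groups were fitted (0.0155). The 4 macrophage markers with values summed to their lowest level in Sqstm1 KO as well. The sum was 8.68 to 12.3 there, 20.3 to 35.4 in WT and 14.3 to 29.3 in the double knock-out. Only 1 of the 4 passed the filter. That gene was called lower in Sqstm1 KO than in WT (limma log2 fold change -3.24) and higher in the double knock-out than in Sqstm1 KO (2.53). The sum may thus follow a single gene, and the part of macrophages in these results was not tested. Without single libraries the count of 8 ranged from 3 to 9 and the count of 10 from 8 to 10.

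Stat2, a subunit of the factor through which type I interferon acts, shows the order of these genes beside Irf3. It stood at 38.1, 53.5 and 62.5 in WT, at 7.15, 13.0 and 5.42 in Sqstm1 KO and at 35.4, 74.2 and 53.5 in the double knock-out (limma adjusted p = 0.00131 for the fall and 0.000872 for the rise). Oasl2, an antiviral gene, stood at 68.1, 52.0 and 52.2, at 6.13, 1.62 and 3.25 and at 49.7, 59.4 and 50.9 in the same order of groups (adjusted p = 3.8e-05 and 3.75e-05). Rsad2, which encodes the antiviral enzyme viperin, had no read in any Sqstm1 KO library. The floor of 3 counts over that group is a normalized count of 0.957. Against it the mean was 11.9-fold higher in WT and 16.6-fold higher in the double knock-out. These folds take those 2 means as exact and leave out their spread. By limma on log2(value + 1), which does not test these folds, the adjusted p was 0.00177 and 0.000584. In these 3 genes Sqstm1 KO was the group with the lowest mean, as it was for Cgas and Ifi204. Cgas and Ifi204, however, overlapped between Sqstm1 KO and WT and were not called there (limma adjusted p = 0.386 and 0.503), so that likeness is one of means only. Irf3 and Sting1 were lowest in WT and Tbk1 in the double knock-out.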

How the data were processed

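Gene-level RNA sequencing values of 9 libraries were taken from 1 deposited table, with 0 columns left unused. Each deposited signal value is a read count of a gene over a size factor, 1 for each library, applied by the authors. STAR, DESeq2 and build GRCm39 are named in the submitters' processing notes, with no versions, while the sources used here do not give the read counter, annotation, strandedness or any filter on genes. In every library all values were whole multiples of the smallest one, within a tolerance of 0.01 (100% of 121126 values above 0), so whole reads were recovered. The unit of the table called for limma on log2 values, and edgeR's quasi-likelihood test and DESeq2 were run on the recovered reads.

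limma 3.58.1 (R 4.3.3) fitted log2 of the value plus 1 in 3 groups with a mean-variance trend and no covariate, two-sided, for 3 comparisons. edgeR was 4.0.16 and DESeq2 1.42.0. Genes under the filter were given the exact permutation test. The steps were tested on simulated data. No molecular identifiers are named and reads are not independent molecules, so intervals and the floor of 3 counts cover counting error only. The core genes and the lists were chosen with earlier results of these data known. Named genes were the core genes, up to 4 called genes per list and comparison by smallest p, the 3 most similar tested genes of each core gene, opposite-strand partners, relatives of Ifi204, Sqstm1 and Nbr1. Some results that this rule gave are not reported here. Predicted genes were left out of the most similar genes. Overlaps came from GENCODE M21 (GRCm38), and Sting1 was matched there by its older symbol. Alternatives were pseudocounts of 0.5 and 5, no filter, a value of at least 50, quantile and TMM scaling, edgeR, DESeq2, only the 2 groups compared, a replicate block and leaving out each library.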

Additional observations from a re-analysis of the deposited data

How the results depend on the processing

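Core genes called in the double knock-out against WT numbered 1, 0 when genes had to reach 50 in 3 libraries, 2 with quantile normalization, 2 by edgeR, 2 by DESeq2, 3 with only the 2 groups fitted, and 0 to 4 when single libraries were left out. Against Sqstm1 KO the count of 1 was 0 with only the 2 groups fitted and 0 to 1 without single libraries. The count over all genes tested was 568 in Sqstm1 KO against WT, 290 with that stricter filter and 226 to 651 without single libraries. In the double knock-out against WT it was 650, then 360, 251 to 1409, and 1229 with only the 2 groups fitted. Against Sqstm1 KO it was 600, then 291, 243 to 764, and 352 with only the 2 groups fitted. A stricter filter tests fewer genes. The cause of the other shifts was not tested. Of 273 values of the 15 fold changes of core genes under the alternatives, 252 kept their direction and their side of the threshold, 11 lost and 9 gained a call, and 1 turned its sign: Cgas in the double knock-out against WT, at -0.037 without double knock-out replicate 2. Its values without single libraries ran from -0.04 to 0.61. Pseudocounts, TMM scaling and the absence of a filter changed no count of called core genes. Among single libraries, the absence of Sqstm1 KO replicate 3 was the only one that added calls of core genes. Depth limits Ikbke, Enpp1 and Dnase2a, which had 8 to 22 reads per group.

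With the replicate number as a block, core genes called in the double knock-out against WT numbered 2, and all genes called numbered 690, 754 and 672 in the 3 comparisons. The main fit did not pair the libraries by number, since the labels name no covariate. The correlation of same-numbered deviations from the group means ran from -0.115 to 0.178. Of the 9 libraries 5 correlated best with their own number in both other groups. Whether same-numbered libraries share a batch was not tested, and these values do not exclude it.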
